A study of Homo sapiens with 20 samples.

Results

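The data described here are the RfxCas13d screen in A375 cells that the labels call a dual titration, with day 14 set against day 0. Its members were chosen by group, as the 3 libraries of day 0 and the 3 of day 14, and they are 6 of the 20 libraries of a study of RNA targeting with Cas13d nucleases in pooled human cell screens. All 6211 guides of the table were used, with values as deposited. A375 is an established human melanoma line. The cells of all 6 libraries carried a nuclear RfxCas13d under a doxycycline-inducible promoter and received 1 µg/ml doxycycline, 1 µg/ml puromycin and 5 µg/ml blasticidin. The labels describe separate infection replicates at a representation of 1000-fold, and the guide cassette was amplified from genomic DNA in 20 reactions of 10 µg over 10 cycles in the first PCR. The labels do not say what was titrated, and nothing in the files used here ties a guide number to a gene or a sequence, so guides are given by number.

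Cas13d is an RNA-guided nuclease of the CRISPR type VI family that cuts RNA and leaves DNA intact. It trims its own guide array, so that a single transcript can supply several guides, and mismatches between guide and target weaken the cutting. In a dropout screen each cell carries an integrated guide cassette, and a cassette that slows growth becomes rarer in the population by the later day.

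At day 0 the 3 libraries held 868384 to 1684142 recovered reads, with a median of 138 to 263 reads per guide. At day 14 they held 494672 to 873999, with a median of 58 to 96. A read is the step in which a library's deposited signal moves, as set out in the account of the processing. The ratio of the 90th to the 10th percentile of signal was 2.14 to 2.65 at day 0 and 68.4 to 95.5 at day 14. Pairs of day 0 libraries correlated at 0.50 to 0.59 over the 6211 guides, and pairs of day 14 libraries at 0.86 to 0.87. The day 14 libraries were thus spread far wider and correlated more closely with each other than those of day 0. The wider spread can itself raise such a correlation. P-values here measure the spread between these libraries.

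By limma on log2 signal, with Benjamini-Hochberg adjustment over all guides and a threshold of 0.05, 3181 guides (51.2%) fell and 101 (1.63%) rose. All changes below are log2 signal at day 14 minus that at day 0. The fallen guides had a median change of -3.68, and the risen ones a median of 1.0997. The number of rising guides was 51, 45 or 43 without day 0 replicate 1, 2 or 3, and the direction of changes near 0 rests on the scale of the table. When libraries were scaled by a trimmed mean over all guides, which shifts every change up by 1.41, 2149 guides fell and 2412 rose. With total signal set equal 2605 fell and 1137 rose.

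The guide numbers fall into 4 stretches, and the losses lay mostly in the grids among them. The first 4719 guides form 39 complete grids of 11 rows by 11 columns, in which 3026 guides (64.1%) fell and 52 (1.102%) rose. The following 120 guides, uid_4720 to uid_4839, form a grid that lacks a place, and 82 of them (68.3%) fell. The 880 guides from uid_4840 to uid_5719 form 80 runs of 11, in which 72 guides (8.18%) fell and 38 (4.32%) rose. The last 492 guides had a median change of 0.04, an SD over guides of 0.47 and a range from -1.13 to 1.68, and 1 of them fell while 9 (1.83%) rose. The share that rose among these last guides was as large as the 1.63% over the whole table. Their median signal lay between 144.9 and 148.1 in all 6 libraries, day 0 and day 14 alike.

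In the complete grids the mean change went from 0.13 at the first place to -1.69 at the end of row 1 and to -0.35 at the end of column 1, and guides late on both axes fell furthest. The geometric mean signal over all grid guides fell from 180.1, 178.6 and 200.4 in the day 0 libraries to 35.6, 33.4 and 34.9 in those of day 14. No day 14 library came near the day 0 level. On the log2 scale the day 0 libraries had a mean of 7.54 ± 0.09 and the day 14 libraries one of 5.11 ± 0.05 (SD, n = 3 each). The difference of -2.43 had p = 0.1 in an exact permutation test, two-sided, and 3 libraries against 3 can give no smaller value. Apart from the first place, 87 of 390 guides (22.3%) fell in row 1, 43 of 390 (11.03%) in column 1 and 2896 of 3900 (74.3%) inside the grid. By limma on the mean of each place over the grids, 112 of the place means (92.6%) fell. The 9 that did not pass were the first 7 places of column 1 and, in row 1, columns 2 and 3. With the trimmed mean scaling 81 place means fell and 31 rose.

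**Figure D1:**
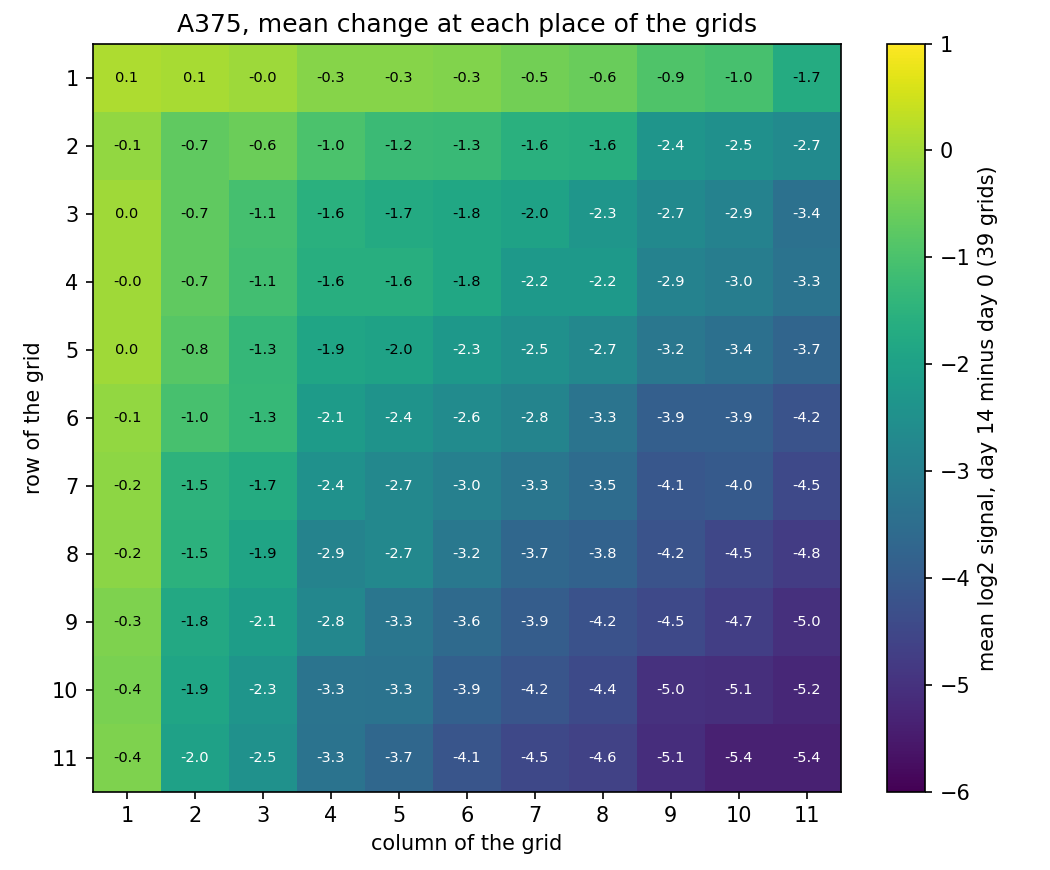
Mean log2 change (day 14 minus day 0) over 39 grids at each place, with the row of the grid down the side, the column along the bottom and the value written in each cell. Row 1 runs from 0.13 to -1.69 and column 1 from 0.13 to -0.35, while the last place reaches -5.37.

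The guide at the first place of the grids had geometric mean signals of 170.0, 180.6 and 201.4 at day 0 and 194.8, 211.9 and 196.3 at day 14. These values overlap. At the end of row 1 they went from 185.0, 186.7 and 208.0 to 57.7, 60.4 and 61.3. At the end of column 1 they were 175.9, 177.1 and 211.4 against 158.0, 143.5 and 139.7. Both ends were lower in every day 14 library, and 24 of 39 guides fell at the end of row 1 against 11 of 39 at the end of column 1. At the last place the signal was 188.6, 188.3 and 206.8 at day 0 and 4.29, 4.82 and 5.08 at day 14, and 39 of 39 guides fell. The last place was the one where the day 14 libraries stood lowest among the 4 corners.

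**Figure D2:**
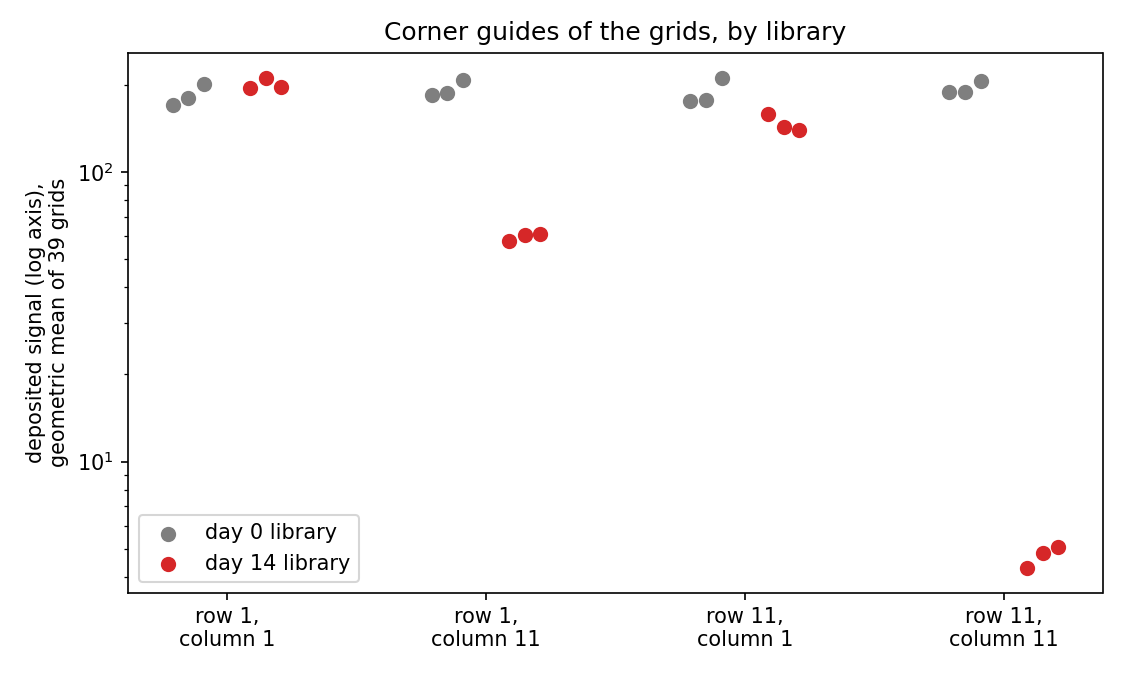
Deposited signal on a log axis, as the geometric mean of 39 grids, at the 4 corner places of the grids, with 1 point per library. Gray points are the 3 day 0 libraries and red points the 3 day 14 libraries. The groups overlap at the first place, and the day 14 libraries lie between 4.29 and 5.08 at the last.

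Many guides late in the grids were down to the lowest level of a day 14 library, which is worth 1 read or 0 reads with 1 added. At least 1 of the 3 libraries was at that level for 826 grid guides, of which 2 lay in row 1 and 0 in column 1. In the last 2 rows by the last 2 columns this was the case for 106 of 156 guides (67.9%). When guides at the lowest level in all 3 libraries were set to 3 reads, the mean change at the last place was -5.24 in place of -5.37. This reset 5 guides at that place, and guides at the lowest level in fewer libraries were left as they were. The median of all fallen guides stayed at -3.68. It could hardly move, since the 128 guides reset lay mostly far below it either way.

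The fall along each axis was not even. By limma on the mean of each row and column over the 39 grids, 19 of 20 steps to the next row or column (95%) fell. The largest step was that from column 1 to column 2, with -0.99 ± 0.04 (SE, n = 3 per day), followed by that from row 1 to row 2, with -0.92 ± 0.04. The step to column 4 was -0.66 and that to column 9 was -0.49. The step from row 3 to row 4 was -0.04 ± 0.04 (adjusted p = 0.338), the one that did not pass the threshold. Whether the steps of rows and columns differ, or those along 1 axis, was not tested. Guides at the lowest level of a day 14 library were more frequent late in the grids, so the late steps may be understated against the first.

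The share of guides that fell followed the same layout. In row 11 it was 11 of 39 in column 1, 26 in column 2, 31 in columns 3 and 4, 38 in column 8 and 39 from column 9 on. In row 1 it was 2 of 39 in columns 2 and 3, 13 in columns 8 and 9, 17 in column 10 and 24 in column 11. More than 50% of grids had a fallen guide from row 7 on in column 2, from row 3 on in columns 4 and 5 and from row 2 on in columns 6 to 10.

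Inside the grids the losses exceeded the sum of those at the edges. For each of the 100 places outside row 1 and column 1, the departure from addition is its change less that at the same column of row 1 and that at the same row of column 1, plus that at the first place. By limma 100 of 100 departures (100%) fell, with a median of -1.90. They share the first place and the guides of row 1 and column 1, so they are not independent tests. The lowest departure was row 11, column 10, at -3.85 ± 0.16 (SE, n = 3 per day). The least negative was row 2, column 3, at -0.29 ± 0.13 (adjusted p = 0.0370).

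The 39 grids differed widely in how much they lost. By limma on the mean of all guides of a grid, 38 of 39 grids (97.4%) fell, and the range ran from -4.05 to -0.07, with a standard error of 0.08 that the fit shares among all grids. The lowest was grid 7, whose geometric mean signal went from 195.8, 187.9 and 221.7 at day 0 to 12.9, 10.5 and 13.3 at day 14. In it 112 guides fell. Grids 24 and 27 followed at -3.76 and -3.74. The 3 highest were grid 38 at -0.07 (adjusted p = 0.375), grid 18 at -0.26 and grid 11 at -0.40. In grid 38 the geometric mean signal was 183.5, 189.7 and 214.1 at day 0 and 201.5, 188.3 and 169.2 at day 14, so that the days overlapped, and 10 guides fell. The means of grids 38, 18 and 11 lie so near 0 that their sign depends on the scale: they were 1.34, 1.16 and 1.01 with the trimmed mean scaling, under which 30 grid means fell and 8 rose.

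Grids 20 apart in order had like patterns. In 19 such pairs the change over the places correlated at 0.67 to 0.92, and with the mean of each place and each grid removed at 0.54 to 0.91, with a median of 0.68. The same measure over the 722 other pairs of grids had a median of -0.04 and reached 0.72. With the second grid transposed, rows for columns, it was 0.01 at the median, and the direct value was the higher one in 19 of 19 pairs. These correlations are across places of the same 6 libraries. The means of paired grids nevertheless differed: by limma the later grid was lower in 6 of 19 pairs (31.6%) and higher in 7 (36.8%). The widest gaps were those of grids 4 and 24 (-2.87 and -3.76) and of grids 9 and 29 (-2.51 and -3.26), and the narrowest that of grids 15 and 35 (-3.35 and -3.30, adjusted p = 0.519).

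**Figure D3:**
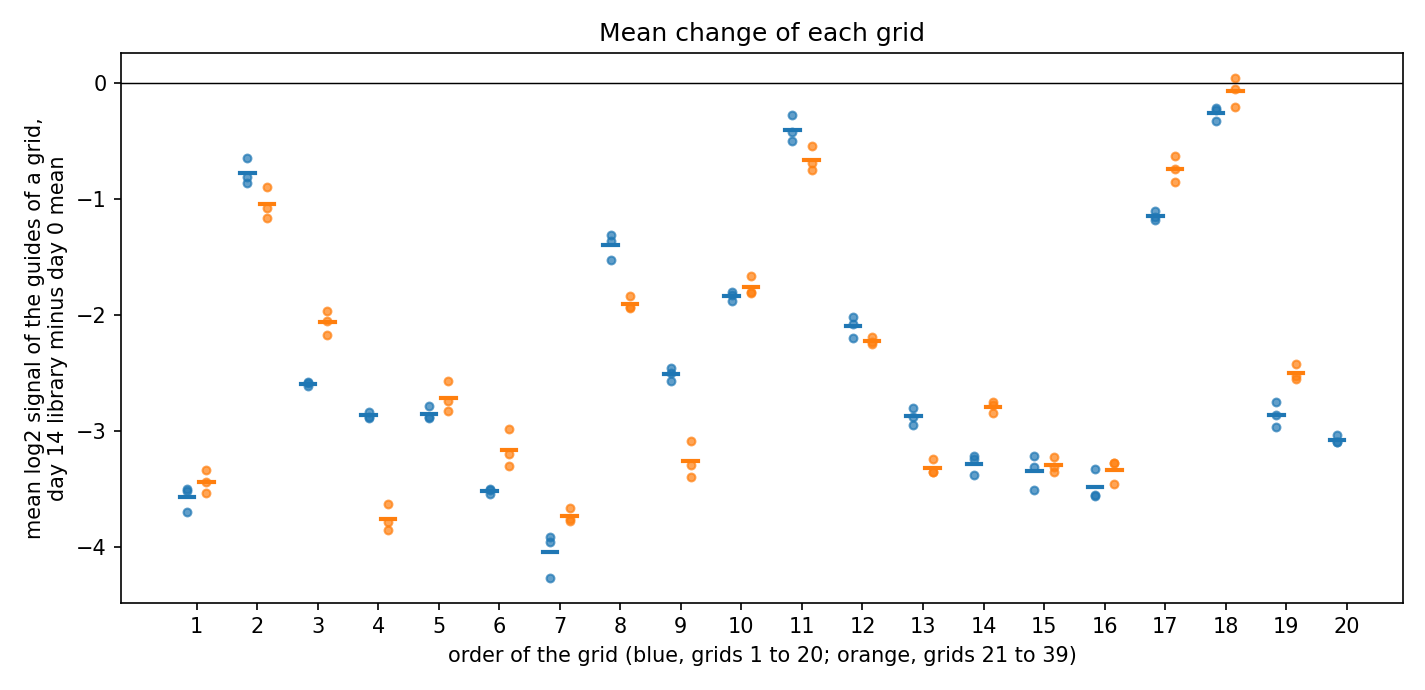
Mean log2 change over the guides of each grid, as each day 14 library minus the mean of the 3 day 0 libraries (points) and their mean (bars), against the order of the grid, with grids 1 to 20 in blue and 21 to 39 in orange. The grids range from -4.05 (grid 7) to -0.07 (grid 38), and blue and orange means at the same order lie within 0.89 of each other.

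Nearly every grid changed along both axes. Row 11 fell below row 1 in 39 of 39 grids (100%) by limma, with a median of -3.42, and column 11 fell below column 1 in 37 of 39 (94.9%), with a median of -4.35 over those called. The 2 grids whose column difference did not pass were the pair 18 and 38, at -0.30 (adjusted p = 0.0837) and -0.22 (adjusted p = 0.228). In this pair the rows carried the change, with differences of -2.22 and -1.46 between row 11 and row 1.

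The balance between the axes varied over the grids. The row difference less the column difference passed the threshold in 33 of 39 grids. It was positive, with the larger fall from column 1 to column 11, in 24 (61.5%). In 9 (23.1%) it was negative, with the larger fall from row 1 to row 11. The column axis led most in grid 20, where rows differed by -1.94 and columns by -5.33, a gap of 3.39 ± 0.25 (SE, n = 3 per day). Grids 33 and 13 followed with gaps of 3.01 and 2.44, the latter 1.61 with a pseudocount of 10. At day 0 the row less column difference was already -0.90 in grid 20 and -0.82 in grid 33, and at day 14 it was 2.48 and 2.19. In grid 20, 61 guides were at the lowest level in at least 1 day 14 library, which limits how far its rows and columns could be seen to fall. The row axis led most in grid 10, where rows differed by -3.63 and columns by -1.06, a gap of -2.58 ± 0.24. Grids 16 and 18 followed with gaps of -2.15 and -1.92. With rows or columns 7 to 11 less 1 to 5 in place of 11 less 1, grids 10 and 16 were at -2.65 and -1.95 but grid 18 at -0.41 (adjusted p = 0.00415), and the gap was positive in 20 grids and negative in 12. In grid 10 the guide at the end of row 1, uid_1100, had day 0 signals of 159.7, 226.5 and 176.0 and day 14 signals of 238.2, 116.8 and 216.8. The guide at the end of its column 1, uid_1200, had 181.4, 212.3 and 149.8 and then 99.4, 37.0 and 21.7. In grid 20 the order was the other way round. The guide uid_2310 at the end of row 1 went from 138.8, 146.6 and 155.0 to 5.92, 20.2 and 8.75, while uid_2410 at the end of column 1 had 72.8, 57.7 and 88.5 and then 63.0, 39.3 and 83.7.

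**Figure D4:**
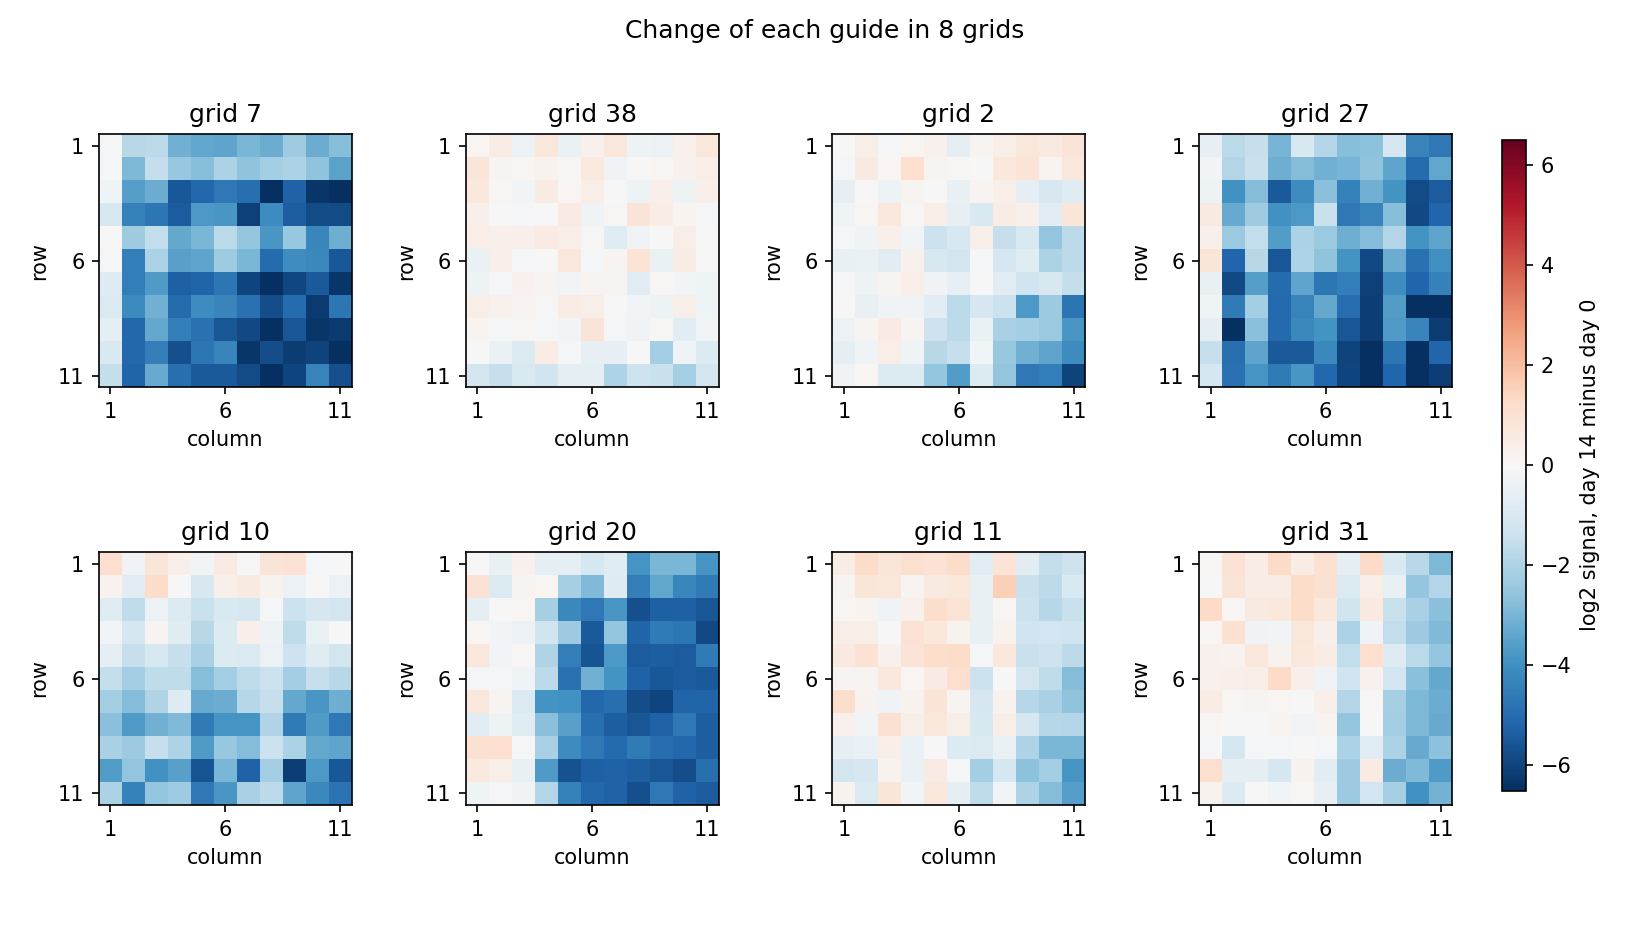
Log2 change (day 14 minus day 0) of each guide in 8 grids, with row of the grid down the side and column along the bottom, blue for lower and red for higher at day 14. Grid 7 (mean -4.05) is low nearly throughout and grid 38 (-0.07) nearly blank. Grid 10 changes mostly from row 1 down to row 11, and grid 20 mostly from column 1 across to column 11. Grid 2 is low at the last corner, grid 27 also along row 1, and grids 11 and 31 hold 14 and 12 rising guides.

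The edges were then tested within each grid, as the mean of places 9 to 11 less that of places 1 to 3 along row 1 and along column 1. Of these 78 edges 37 (47.4%) fell and 5 (6.41%) rose by limma. Row 1 fell in 26 grids and column 1 in 11, and in 4 grids both did. Column 1 of grids 4 and 24, at -0.30 and 0.38, holds a very low second guide among places 1 to 3, described below. This raises the measure, so that a fall along these edges could be missed. The lowest row 1 was that of grid 19, at -3.71 ± 0.27 (SE, n = 3 per day), and the lowest column 1 that of grid 10, at -2.78. Row 1 fell in both grids of 11 of the 19 pairs, in 1 grid of 3 pairs and in neither grid of 5. Column 1 fell in both grids of 4 pairs, 9 and 29, 10 and 30, 16 and 36, and 18 and 38. The 5 rises, in column 1 of grids 1, 6, 12 and 26 and row 1 of grid 17, ranged from 0.71 to 1.06. Their number was 5 with a replicate block, 6 with a pseudocount of 10 and 4 to 6 without a day 14 library, but 1, 3 and 0 without day 0 replicate 1, 2 and 3.

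In 6 of 39 grids no edge passed the test downwards, namely grids 2, 5, 13, 17, 25 and 37. Their last corners, the mean of rows 10 and 11 by columns 10 and 11, fell all the same, from -2.12 in grid 37 to -6.18 in grid 13. Not passing does not show that an edge was unchanged. In grid 5 both edges came near the threshold by limma, row 1 at -0.65 (adjusted p = 0.0620) and column 1 at -0.76 (adjusted p = 0.0626). Over all grids the last corner fell in 39 of 39 (100%), with a median of -5.75. Grid 2 shows the pattern in single guides. Its first guide uid_0122 had day 0 signals of 171.4, 214.9 and 231.3 and day 14 signals of 244.1, 158.2 and 210.4. The end of row 1, uid_0132, had 174.7, 173.6 and 156.5 and then 219.5, 362.1 and 333.2, so that every day 14 value was above day 0 (adjusted p = 0.0438). The end of column 1, uid_0232, had 244.1, 254.8 and 182.0 and then 153.6, 198.8 and 223.3, with overlap. The last guide, uid_0242, went from 223.2, 287.0 and 408.5 to 5.92, 7.13 and 2.29, the last of which is the lowest level of its library, with a change of -6.01 ± 0.58 (SE, n = 3 per day).

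The corner contrast gives this excess in 1 value per grid. The 2 corners that end row 1 and column 1 are subtracted from the sum of the first and last corners, with each corner the mean of 2 by 2 places. It is 0 where rows and columns add. By limma it fell in 29 of 39 grids (74.4%), with a median of -2.204 over all 39. The most negative were grids 2 (-4.62 ± 0.50, SE, n = 3 per day), 1 (-4.31) and 22 (-4.20), of which 2 and 22 are a pair. Grid 1 was at -1.99 with corners of 3 by 3 places and at -2.23 with a pseudocount of 10, where grid 2 was at -3.84 and -3.52. Grid 22 was at -2.75 with that pseudocount. In grid 2 the contrast was 0.32, -0.38 and 0.56 in the day 0 libraries and -3.62, -5.25 and -4.49 at day 14, without overlap. The least negative were grids 27 (0.08, adjusted p = 0.899), 19 (-0.05, adjusted p = 0.921) and 11 (-0.30, adjusted p = 0.594). In grid 27 the ends of row 1 and column 1 already lay at -4.36 and -3.11 as 2 by 2 corners, and the last corner at -6.29. Of the 12 values of the last corner at day 14, 4 guides in 3 libraries, 9 in grid 27, 6 in grid 19 and 0 in grid 11 were at the lowest level of their library. A further fall could not show at such values, so a contrast near 0 in grids 27 and 19 does not show that rows and columns add. The size of the contrast depends on how it is formed. Its median was -1.02 with a pseudocount of 10, with 22 grids called, -3.14 with single corner guides, with 26 called, and -1.58 with corners of 3 by 3 places, with 29 called. The corners of 2 by 2 places also hold guides of rows 2 and 10 and columns 2 and 10. In grids 4 and 24 the first corner was itself at -1.51 and -1.94, which by itself lowers their contrasts of -1.47 and -2.09. The corners that end row 1, at -4.20 and -3.82, also hold row 2 and enter with the opposite sign. The net effect of row 2 on these contrasts was not tested. With guides at the lowest level in all 3 day 14 libraries set to 3 reads the median contrast was -2.01.

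The rising guides of the grids were concentrated in another pair. Of 52, 14 lay in grid 11 and 12 in grid 31, and no other grid had more than 3. These shares of a grid lie above the 1.63% over the whole table. They lay in rows 1 to 8 and columns 1 to 8, 20 of the 26 in columns 2 to 6, and their median change was 1.132 in grid 11 and 1.139 in grid 31. At 5 places a guide rose in both grids, which is 35.7% of those in grid 11 and 41.7% of those in grid 31. The highest was uid_1229 (row 2, column 8 of grid 11) at 1.56. Row 1 of both grids nevertheless fell along its length, with places 9 to 11 less places 1 to 3 at -2.04 in grid 11 and -2.40 in grid 31. Among the other 26 rising guides 16 lay in column 1. Over all 39 grids, 4.10% of the guides of column 1 rose, the first place left out. The share was 1.102% over all guides of the complete grids and 4.32% in the runs of 11 after them.

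Of the 80 runs of 11 after the grids, some resembled row 1 of the grids. Taken in 4 blocks of 20, block 2 (uid_5060 to uid_5279) and block 3 (uid_5280 to uid_5499) changed along their length, from -0.03 at place 1 to -1.23 at place 11 and from 0.30 to -1.33. Blocks 1 and 4 ended at 0.02 and 0.15. By limma on places 9 to 11 less 1 to 3, 20 of 80 runs (25%) fell and 5 (6.25%) rose, the latter 1 to 6 in number with a library left out, 1 each without day 0 replicate 1 or 2, 3 without day 0 replicate 3 or with a pseudocount of 10, and 2 with a replicate block. Of the falling runs, 19 lay in blocks 2 and 3. In 2 of the 5 rising runs the early places hold a very low guide, uid_4874 at -4.68 and uid_5534 at -5.44. Without it, places 9 to 11 less places 1 and 3 were at -0.74 and -0.80, in place of 0.93 and 1.17.

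The runs of blocks 2 and 3 were set beside row 1 of the grids of the same order, 1 to 20 and 21 to 39, and those of blocks 1 and 4 beside column 1, a match chosen after the values were seen. Over the 11 places block 2 correlated with row 1 of its own grid at a mean of 0.48, against 0.13 with row 1 of other grids, and block 3 at 0.56 against 0.24. The own grid was the best match in 7 of 20 and 6 of 19 runs. Blocks 1 and 4 correlated with column 1 of their own grid at 0.20 and 0.12, against -0.04 with others. These are correlations across guides of the same 6 libraries. Row 1 fell in 26 of 39 grids and the matching run in 18, both in 16. Column 1 fell in 11 of 39 grids and the matching run in 1, which was among them, with medians of -0.30 and 0.19. Over grids the 2 measures correlated at 0.23 for column 1 and 0.73 for row 1. The match with row 1 was partial. Row 1 of grid 7 fell by 1.54 ± 0.47 (SE, n = 3 per day), though its day 14 libraries were uneven, at -1.63, -2.28 and 0.19. The run at its order was at 0.58 and did not pass (adjusted p = 0.181 by limma).

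**Figure D5:**
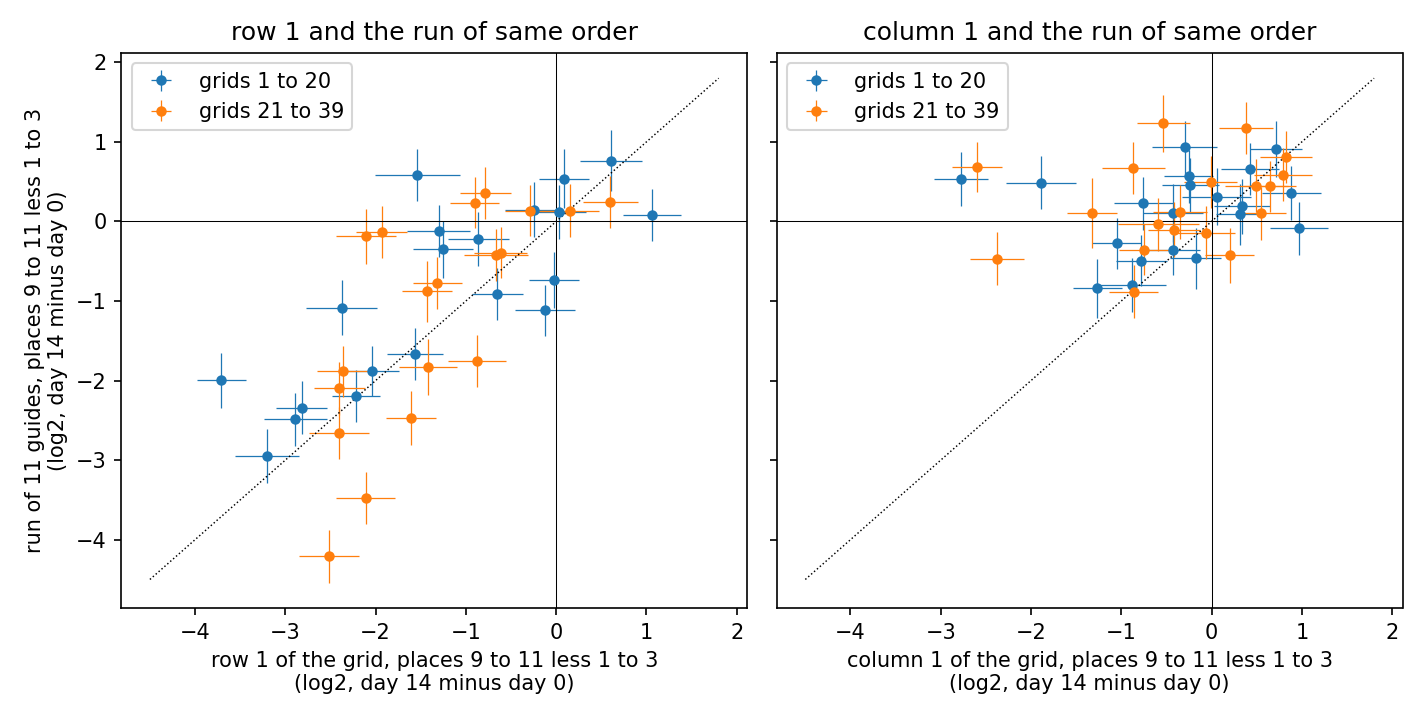
Log2 change at places 9 to 11 less that at places 1 to 3 (day 14 minus day 0, with standard errors) of each run of 11 guides against the same measure in row 1 (left) or column 1 (right) of the grid of the same order, grids 1 to 20 in blue and 21 to 39 in orange, with equality dotted. Runs and row 1 fall together in 16 of 39 cases, and column 1 and its runs in 1 of 39.

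The clearest single match was in grids 4 and 24. In column 1 of both, the second guide was low while the first was not. In grid 4 the second guide, uid_0375, went from 216.5, 248.4 and 258.2 to 15.8, 16.3 and 19.1, a change of -3.82, and in grid 24 uid_2795 went from 238.2, 212.3 and 155.0 to 12.8, 7.90 and 8.75, a change of -4.37. The second guides of the runs at the same order were low too. The guide uid_4874 went from 259.9, 202.0 and 161.8 to 1.98, 13.3 and 19.1, a change of -4.68 ± 0.77 (SE, n = 3 per day). The guide uid_5534, the lowest called guide after the grids, went from 152.2, 131.1 and 209.6 to 8.87, 2.53 and 2.29, a change of -5.44 ± 0.56. At all 4 guides every day 14 value was far below every day 0 value. The neighbour uid_5533 had 157.2, 71.9 and 125.9 and then 146.7, 119.8 and 281.5.

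When the runs took the place of the edges in the corner contrast, 36 of 39 grids were called, with a median of -4.77, a value that rests on the match of runs to edges, which was the poorer for column 1. Grids 27 and 19, at 0.08 and -0.05 with their own corners, were at -5.25 and -3.85 with the runs.

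The short grid resembled grid 20, its partner by order. The 120 changes correlated with grid 20 at 0.94 when the missing place was put at row 8, column 5, and the next closest grid, 33, reached 0.82. The 10 best positions for the gap all lay in row 8. So aligned, the short grid changed most from column to column: column 1 had a mean of 0.02 and column 11 of -5.35. Rows 1 and 11 had means of -1.88 and -3.29. At day 0 its median signals were 105.4, 109.2 and 115.0, below the 182.7 to 206.6 of the complete grids, and grid 20 too had the lowest mean of the 39 at day 0 (6.65 on the log2 scale, against a median of 7.58). Its lowest guide, uid_4752, went from 107.1, 154.3 and 263.5 to the lowest level in all 3 day 14 libraries, so that its signal was at least 40.9-fold lower when 3 reads are allowed. Its highest, uid_4788, rose from 100.4, 57.7 and 55.6 to 226.4, 216.4 and 241.4, a change of 1.73 (adjusted p = 0.00121), while the facing guide of grid 20, uid_2368, was at -0.92 (adjusted p = 0.148).

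Among guides with all day 14 values above the lowest level, the 5 lowest were all late in a grid. The lowest, uid_1936 at row 11, column 11 of grid 16, went from 260.8, 180.1 and 249.2 to 2.97, 2.53 and 3.58, a change of -6.24 ± 0.44 (SE, n = 3 per day, adjusted p = 2.26e-07). The guides uid_4345 and uid_4334, at rows 10 and 9 of column 11 in grid 36, the partner of grid 16, were at -6.08 and -5.86. The guides uid_3484 (grid 29, row 9, column 8) and uid_3018 (grid 25, row 11, column 4) were at -5.95 and -5.85. All 5 had every day 14 value below 11. The lowest levels of the 3 day 14 libraries were 1.98, 1.77 and 2.29, so the size of these changes rests on few reads.

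The 5 highest called guides lay outside the complete grids. Besides uid_4788 they were 3 guides of block 2 of the runs and 1 of the last 492. The guide uid_5108, at place 5 of its run, rose from 169.7, 213.6 and 158.0 to 635.8, 554.5 and 537.4, and uid_5174, also at place 5, from 140.5, 171.1 and 120.6 to 502.0, 384.3 and 488.2. Neither overlapped between days, with changes of 1.68 and 1.67. The guides uid_5263 and uid_5911 were weaker. The first had 24.4, 68.0 and 24.2 at day 0 and 220.5, 63.1 and 104.4 at day 14, with overlap and an adjusted p of 0.0350. The second had 52.8, 47.4 and 27.9 and then 287.4, 137.5 and 57.9, with an adjusted p of 0.0345. Their adjusted p rose to 0.0534 to 0.114 without day 0 replicate 1 or 3 or day 14 replicate 1 or 3 for uid_5263, and to 0.0568 to 0.114 without day 0 replicate 2 or 3 or day 14 replicate 1 or 2 for uid_5911.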

How the data were processed

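Guide abundance was read by amplicon sequencing of genomic DNA. The deposited values are signal that the authors normalised in a way not given in the sources used here. Per the submitters' processing notes, cutadapt 1.13, Bowtie 1.1.2 and the build GRCh38 were used. In each library 100% of the deposited values, less 1, divided evenly by the smallest step between them, to within 0.01 read, which gave the reads. No count model was used in the main fit, since the deposited values are signal, and voom on the recovered reads was an alternative. Log2 signal, without pseudocount, scaling or filter, was fitted with limma 3.58.1 in R 4.3.3, day 14 against day 0, with a variance trend for guides and none for grid, place, edge, pair and run means. The scripts were tested on simulated data. Grids, runs and lists were chosen with earlier results of these data known. Guides named by rule are the 5 lowest and 5 highest called guides above the lowest level, the 3 extreme grids for the mean, the corner contrast and the row less column difference at either end, and the extremes of the short grid and of the guides after it. Others were chosen after their values were seen.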

Additional observations from a re-analysis of the deposited data

How the results depend on the processing

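The alternatives were 4 scalings, a pseudocount of 10, a minimum mean signal of 50, a minimum log2 change of 1, voom on the recovered reads, rows and columns 7 to 11 less 1 to 5, other corners and edges, a replicate block and each library left out. The scaling by guides after the runs, voom with the lowest level as 0 reads, the runs as edges, and the results on runs, steps, edges and last corners were added after seeing the data. With the trimmed mean 2412 guides rose, and 19 after the grids fell. With total signal these were 1137 and 34. Rising guides numbered 43 to 143 and rising edges 0 to 6 with a library left out. The means of grids 38, 18 and 11 were 1.34, 1.16 and 1.01 with the trimmed mean. The corner contrasts near 0 changed sign: grid 19 was 0.73 with the pseudocount and 0.52 with 3 by 3 corners, grid 11 was 0.073 with the pseudocount, and grid 27 was -0.84 with single guides and -5.25 with the runs as edges. The run that stood for row 1 of grid 27 did not pass the threshold, unlike row 1 itself. With a library left out, grid 27 ranged from -0.29 to 0.54, grid 19 from -0.53 to 0.52 and grid 11 from -0.76 to 0.22. With the trimmed mean 8 grid means and 31 place means rose. Rising runs numbered 1 to 6 with a library left out. The counts of falls in guides over the whole table, grid means, places, rows, columns, runs, steps, edges and last corners, and of grids past the threshold for corner contrast, row less column difference and pairs, moved by under 1.5 times.

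Same-numbered libraries correlated at 0.00, 0.03 and 0.01 in their deviations from the day's mean. These deviations also hold the counting noise of each library, so they cannot show whether the replicate numbers pair the libraries. The labels do not say what a replicate number shares between days. With a replicate block 3219 guides fell and 106 rose, and 3150 of the 3181 guides called lower were kept. Depth limits the late places most, since each day 14 library had 469 to 482 guides at its lowest level, which may be 1 read or 0 reads with 1 added.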
